A study of Mus musculus with 18 samples.

Results

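The regions described here are distal ATAC-seq peaks of mouse macrophages that opened with lipopolysaccharide (LPS), stayed at 0.5 or less of that level when the cells had been pretreated with (+)-JQ1, and kept more than 0.7 of it after pretreatment with IL-10. They were chosen by their own readout in 4 of the 6 conditions. A peak was a member when its mean accessibility over 3 libraries, as its count per 1000000 counts in peaks (CPM), was 2 or more with LPS, at least 2 times that of unstimulated cells, 0.5 or less of LPS in LPS + JQ1 and above 0.7 of LPS in LPS + IL-10. Of 157614 distal peaks, which lie outside the authors' promoter window, 62312 had 2 or more CPM with LPS and 4500 of these had opened at least 2-fold. The limit on LPS + JQ1 left 1199 peaks, or 26.6% of the opened peaks, and the limit on LPS + IL-10 left 362 members, or 8.04%. Of the 1199, 447 were at 0.5 or less of LPS with IL-10 as well, and 390 lay between 0.5 and 0.7.

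The cells were bone marrow-derived macrophages (BMDMs) of 3 Il10-/- mice on the C57BL/6J background, adult males by the study's methods, cultured for 6 days in medium with L929-conditioned medium. Every group therefore lacked the Il10 gene product, the controls included, and IL-10 was present only where recombinant protein was added. The groups were unstimulated and untreated cells, 500 nM (+)-JQ1 alone, 10 ng/mL IL-10 alone, LPS at 50 ng/mL, LPS + JQ1 and LPS + IL-10, with 3 libraries each. Pretreatment lasted 12 h and LPS, or PBS in its place, was then present for 4 h. The study's methods name a vehicle control for the pretreatment, while the labels call the cells without JQ1 or IL-10 untreated. An effect of vehicle was not tested. A wild-type group was not analysed here, so nothing below separates the genotype from the treatments.

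JQ1 binds the bromodomains of the BET proteins in place of acetylated lysine. These proteins are readers of acetylated histones and help to recruit the elongation machinery to enhancers and promoters. LPS signals through Toll-like receptors to NF-kappaB, AP-1 and, through type I interferon, to interferon regulatory and STAT factors, and macrophages respond by opening large numbers of distal elements. IL-10 acts through its receptor and STAT3 and restrains part of that response. In ATAC-seq a transposase inserts adapters into open DNA, so the read count over a region measures its accessibility.

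The libraries held between 12020526 and 25908198 counts in peaks. The members took 0.302% to 0.324% of the counts with LPS, 0.113% to 0.134% with LPS + JQ1 and 0.0896% to 0.124% in unstimulated cells. Replicate 1 of the unstimulated cells had the smallest library and the highest share in members of its group, so counts of members against unstimulated cells are also given without it. Promoter peaks of 6 macrophage markers, among them Csf1r, Itgam and Lyz2, had group-averaged levels of 7.06 to 35.1 CPM, whereas Cd3e, Cd3d, Cd3g, Ly6g, Col1a2 and Col3a1 had no promoter peak. Other markers had one (Lck 17.7 CPM, Elane 27.5 CPM, Pdgfra 23.0 CPM). An open promoter is not expression, and the part of other cells in the results was not tested. The promoter peak of Il10 had 4.42 to 5.93 CPM in the 6 groups, which does not check the deletion.

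Windows of 150 bases from 4 members, on the plus strand of mm9, are shown to let the sequence of these elements be read beside their values. A search of the middle 500 bases, on both strands, used TGANTCA for AP-1, GAAANNGAAA for the interferon-stimulated response element (ISRE) and a kappaB consensus, and the windows come from the 2 most accessible members with LPS for each motif, leaving out a window in a simple repeat. Capitals mark the matches.
Lass6, chr2:68732722-68732871, intron of Lass6, AP-1 match: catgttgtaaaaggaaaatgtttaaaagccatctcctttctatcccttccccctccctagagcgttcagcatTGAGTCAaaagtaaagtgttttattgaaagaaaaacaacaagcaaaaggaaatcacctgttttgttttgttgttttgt
Parp14, chr16:35845244-35845393, intron of Parp14, AP-1 match: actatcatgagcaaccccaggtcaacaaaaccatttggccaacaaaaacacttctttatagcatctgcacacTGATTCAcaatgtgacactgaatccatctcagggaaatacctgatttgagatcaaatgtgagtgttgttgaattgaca
Slfn5, chr11:82780604-82780753, intergenic, kappaB match: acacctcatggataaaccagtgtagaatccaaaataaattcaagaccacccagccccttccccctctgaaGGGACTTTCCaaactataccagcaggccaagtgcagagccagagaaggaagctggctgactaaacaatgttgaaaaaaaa
Oas1g, chr5:121342884-121343033, intergenic, ISRE and kappaB matches: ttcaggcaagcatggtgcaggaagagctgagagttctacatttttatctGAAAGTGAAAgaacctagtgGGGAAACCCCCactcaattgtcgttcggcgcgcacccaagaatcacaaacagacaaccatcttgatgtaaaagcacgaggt
The peak around the Lass6 window went from 9.03 ± 1.51 CPM (SD, n = 3) unstimulated to 27.2 ± 3.04 with LPS and 12.5 ± 1.07 with LPS + JQ1. The peak around the Oas1g window, with both an ISRE and a kappaB match, went from 9.21 ± 1.25 to 35.3 ± 0.827 and 15.3 ± 1.13 CPM.

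Across the 362 members, the median level was 1.86 CPM in unstimulated cells, 5.93 CPM with LPS, 2.08 CPM with LPS + JQ1 and 5.38 CPM with LPS + IL-10. These values describe the choice and are not tested. The median (LPS + JQ1)/LPS ratio was 0.399, with the lowest at 0.107, and 104 members were at or below 1/3 of their LPS level. In CPM, the level left with LPS + JQ1 was close to that before LPS. The median member kept 4.65% of its LPS gain over unstimulated cells, 143 of 362 were at or below the unstimulated mean and 28 were still at 2 times it or more. Without replicate 1 of the unstimulated cells these values were 9.89%, 91 and 47. The closeness also depends on scaling. Scaled by TMM in place of total counts in peaks, the members' library medians were 1.53 to 1.87 unstimulated and 2.07 to 2.38 with LPS + JQ1. With that scaling every LPS + JQ1 library lay above every unstimulated one. With LPS + IL-10 the median member kept 76.0% of its gain, and 105 members were above their LPS level.

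Median levels over the members were 5.63, 5.98 and 6.20 CPM in the 3 LPS libraries, 2.28, 1.95 and 2.12 CPM with LPS + JQ1, and 5.89, 4.91 and 5.40 CPM with LPS + IL-10. The unstimulated libraries had 2.33, 1.77 and 1.59 CPM, with replicate 1 apart from the other two.

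**Figure D1:**
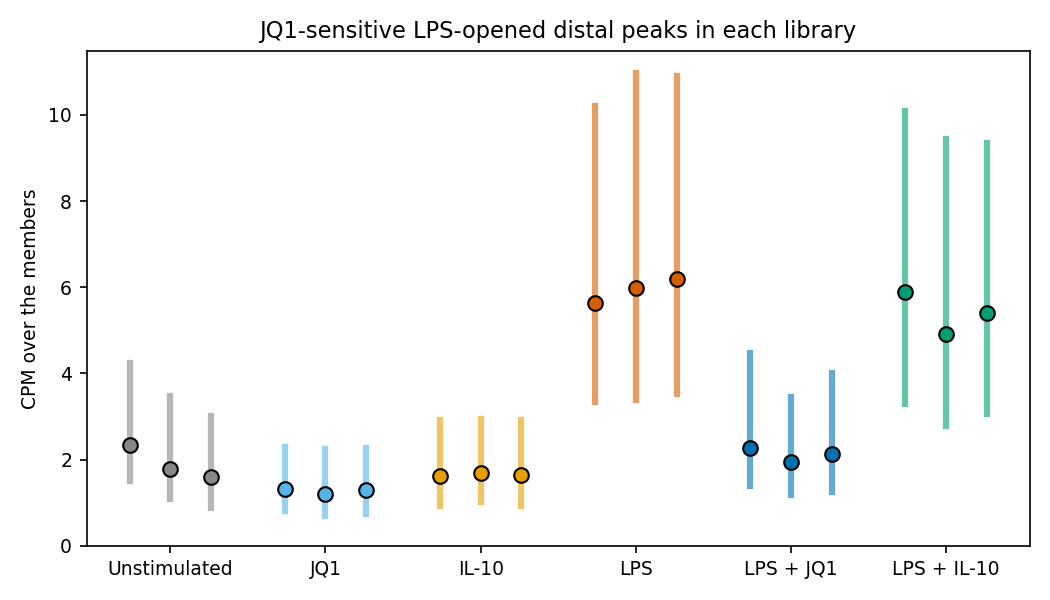
Accessibility of the 362 members in each of the 18 libraries. Points are the median CPM over members and bars run from the lower to the upper quartile. The LPS and LPS + IL-10 medians lie between 4.91 and 6.20 CPM, and those of all other libraries at 2.33 CPM or below.

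Without LPS the median was 1.28 CPM with JQ1 alone and 1.65 CPM with IL-10 alone, and JQ1 alone was below unstimulated cells in 337 of 362 members and IL-10 alone in 260. Over all distal peaks 81.9% and 74.6% were below unstimulated cells, and the median ratios to unstimulated cells were 0.750 with JQ1 and 0.810 with IL-10, against 0.654 and 0.809 for the members. Without replicate 1 of the unstimulated cells the counts were 309 and 212. These values share the unstimulated libraries with the rule. In CPM scaled by TMM the members' library medians were 1.53 to 1.87 unstimulated, 1.33 to 1.37 with JQ1 alone and 1.62 to 1.70 with IL-10 alone, so with that scaling IL-10 alone overlapped unstimulated cells. LPS + JQ1 exceeded JQ1 alone in 338 members, by 1.71-fold at the median, and 117 members reached 2-fold. The same ratio for IL-10, LPS + IL-10 over IL-10 alone, had a median of 3.22 and reached 2-fold in 327 members. The difference between these ratios follows in part from the limits of the rule.

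The limits cut through a continuum. The members closest to the limit on LPS + JQ1 were peaks near Slfn9, Bcl2l11 and Clec2d with ratios of 0.49997, 0.49958 and 0.49945, and the nearest peaks outside it, near Ranbp2, Cyld and Chmp4b, had 0.50011, 0.50055 and 0.50151. On the IL-10 limit, members near Mnda, Parp14 and Slfn9 had 0.70137, 0.7021 and 0.70214, against 0.69921 and 0.69845 for a pair of peaks near Nostrin and 0.69833 for one near Pyhin1. The smallest LPS gains among members were 2.0038, 2.004 and 2.0089 near Tnfsf8, Rapgef2 and Fam184a, and the nearest peaks below were at 1.9994, 1.9938 and 1.9863 near Rapgef2, Gch1 and Ism1. The faintest members, near Tarm1, Tmem164 and 1700123I01Rik, had 2.0048, 2.0143 and 2.017 CPM with LPS, and the peaks just below, near Dnajc1, Slc2a4 and Oasl1, had 1.9954, 1.9892 and 1.9806 CPM.

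Since the same libraries cannot both choose and test the peaks, the rule was applied to 1 replicate at a time and the chosen peaks were tested in the other 2 with edgeR's quasi-likelihood test over all peaks, on the 12 libraries of those replicates. A call needed a Benjamini-Hochberg adjusted p (FDR) below 0.05 and a log2 fold-change beyond 0.5. The rule chose 289, 544 and 779 peaks on replicates 1, 2 and 3, of which 143, 197 and 240 were among the 362 members. Opening with LPS was called in the other replicates for 254 of 289 (87.9%), 415 of 544 (76.3%) and 576 of 779 (73.9%), while 8.84%, 8.04% and 13.1% of all tested peaks were called higher. Lower accessibility in LPS + JQ1 than in LPS was called for 219 (75.8%), 243 (44.7%) and 390 (50.1%), against a background of 2.89%, 1.55% and 1.86%, and none of the chosen peaks was called in the opposite direction by edgeR. The log2 fold-change was negative in 278 of 289, 513 of 544 and 748 of 779, with medians of -1.33, -0.90 and -0.96.

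Calls of LPS + IL-10 against LPS differed with the replicate that chose the peaks. LPS + IL-10 was called below LPS in the other 2 replicates for 73 of 289 peaks (25.3%), 15 of 544 (2.76%) and 78 of 779 (10.0%), against 3.28%, 2.32% and 2.69% of all peaks, and above LPS for 8, 26 and 46. The peaks chosen on replicate 1 therefore held many that IL-10 lowered in the other replicates, at a median log2 fold-change of -0.44, while those chosen on replicates 2 and 3 had medians of -0.06 and -0.22. LPS + JQ1 remained above unstimulated cells in 95 (32.9%), 139 (25.6%) and 185 (23.7%), where 6.63%, 5.76% and 12.1% of all peaks were called. JQ1 alone was called below unstimulated cells for 12 (4.15%), 16 (2.94%) and 74 (9.50%), where 1.27%, 0.567% and 2.96% of all peaks were called. The last counts depend on scaling: with libraries scaled by total counts in peaks in place of TMM they were 38, 67 and 276, and over all peaks the median then moved from between -0.05 and -0.10 to between -0.31 and -0.46 on the log2 scale.

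A second view left out 1 replicate from the choice and read its ratios, as a description. For 574 peaks chosen without replicate 1, the median ratios in replicate 1 were 1.99 for LPS over unstimulated, 0.522 for LPS + JQ1 over LPS and 0.961 for LPS + IL-10 over LPS. For 379 peaks chosen without replicate 2 they were 2.94, 0.365 and 0.737, and for 293 chosen without replicate 3 they were 3.78, 0.405 and 0.857. LPS + JQ1 lay below LPS in the left-out replicate for 550 of 574, 374 of 379 and 291 of 293 peaks, whereas all 4 limits were met there by 104, 137 and 157. Replicate 1, whose unstimulated library stood highest, gave the smallest LPS gains.

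**Figure D2:**
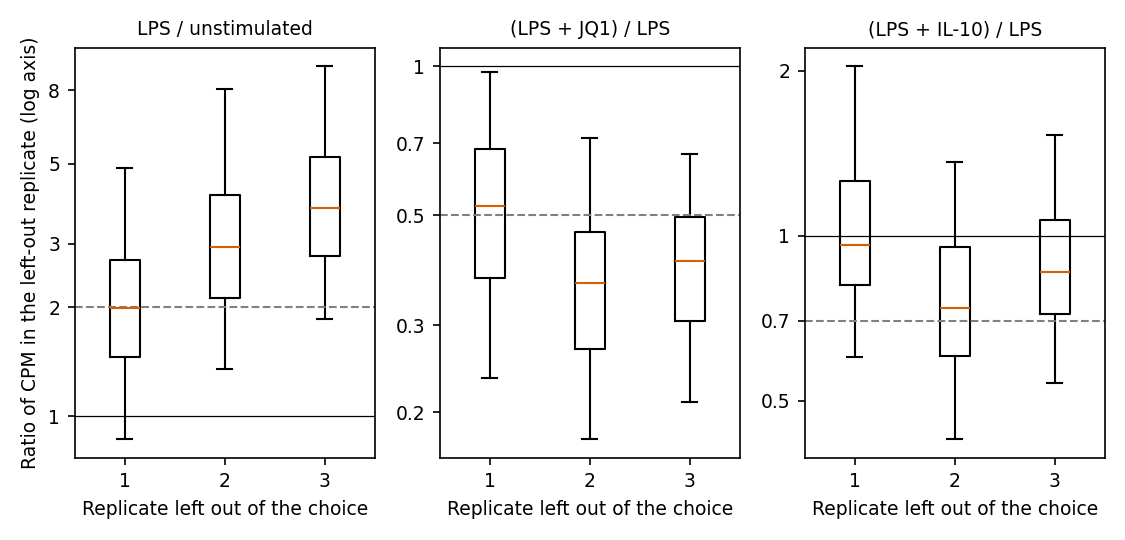
Ratios of CPM in the replicate that was left out of the choice, for the peaks chosen on the other 2 (574, 379 and 293 peaks). Boxes show quartiles with the median in orange, whiskers run from the 5th to the 95th percentile, dashed lines are the limits of the rule, solid lines mark 1, and all axes are logarithmic. The JQ1 ratio had medians of 0.522, 0.365 and 0.405, and the IL-10 ratio medians of 0.961, 0.737 and 0.857.

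The members were not spread evenly over the genome. Joined where neighbours lay within 25 kb, they formed 180 groups, of which 136 were single peaks and 8 held 5 or more members, 135 peaks in all. The 5 largest groups held 32.9% of the members. The same measure was 5.36% for all 4500 opened peaks, 4.09% for the 1270 opened peaks resistant to both treatments (both ratios above 0.7) and 17.0% for the 447 lowered by both. That share depends on the size of the set, so it does not compare clustering between them. Groups of 5 or more, formed within each set, held 37.3% of the members and 34.0% of the opened peaks. They held 11.8% of the resistant peaks and 28.4% of those lowered by both. These shares depend on the size of the set as well, so they do not compare clustering either. Chromosome 2 held 78 members and chromosome 13 held 54. Whether members of a group vary independently was not tested.

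The largest group, 46 members over chr2:68729739-68965505, filled the body of Lass6 (now Cers6), which encodes a ceramide synthase. Of 80 distal peaks in the 252.8 kb gene, 74 had opened with LPS and 42 were members, spread from 33.2 to 250.0 kb from the gene's start. Summed over these 42, accessibility was 208, 182 and 160 CPM in the 3 unstimulated libraries, 126, 119 and 133 with JQ1 alone, and 150, 164 and 156 with IL-10 alone. It was 502, 577 and 536 CPM with LPS, 257, 219 and 249 with LPS + JQ1, and 448, 436 and 413 with LPS + IL-10. The LPS + JQ1 libraries lay below every LPS library and above the unstimulated ones. The 36 other peaks of the body with 2 or more CPM had a median LPS + JQ1 ratio of 0.525 and an IL-10 ratio of 0.757, with LPS over unstimulated at 2.91. The promoter peak at the gene's start behaved otherwise, with 44.5 ± 6.35 CPM unstimulated, 57.2 ± 3.12 in LPS and 56.5 ± 5.21 in LPS + JQ1 (SD, n = 3). The 3 promoter peaks of Lass6 at internal annotated starts, in contrast, had LPS + JQ1 ratios of 0.445, 0.448 and 0.462, like the members around them.

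Aoah held the second group, 45 members over chr13:20894803-21124800. Its product, acyloxyacyl hydrolase, removes fatty acyl chains from LPS and so inactivates it. Of 72 distal peaks in the 230.1 kb gene, 47 had opened, 42 were members, none was lowered by both treatments and 1 was resistant to both. The summed level of the 42 was 149, 90.8 and 70.7 CPM unstimulated, 71.1, 62.5 and 59.9 with JQ1 alone, and 85.1, 80.5 and 81.0 with IL-10 alone. With LPS it was 318, 342 and 356 CPM, with LPS + JQ1 99.9, 82.9 and 101, and with LPS + IL-10 377, 355 and 368. The LPS + JQ1 libraries lay within the wide spread of the unstimulated ones, and the LPS + IL-10 libraries overlapped those of LPS alone. The 14 other peaks of the body with 2 or more CPM had a median LPS + JQ1 ratio of 0.383 and an IL-10 ratio of 1.14. The promoter peak rose from 11.9 ± 1.76 to 24.0 ± 2.38 CPM with LPS and had 18.5 ± 2.54 CPM with LPS + JQ1, a ratio of 0.770 against a median of 0.270 for the members in the body.

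The third group, 16 members over chr3:78858653-78960492, lay in and beside Rapgef2, which encodes an exchange factor for Rap GTPases. The 13 members in the gene body summed to 47.8, 40.3 and 33.4 CPM unstimulated, 83.5, 93.9 and 102 with LPS, 31.7, 30.1 and 33.5 with LPS + JQ1 and 77.1, 76.9 and 82.4 with LPS + IL-10. The promoter peak at the annotated start had 7.33 ± 0.873 CPM with LPS and 7.96 ± 1.36 with LPS + JQ1. Of the other 2 promoter peaks, chr3:78976344-78977918 rose from 19.0 to 43.3 CPM with LPS and had 49.1 CPM with LPS + JQ1, and chr3:78947319-78953209, further inside the gene, had 17.7 and 9.77 CPM.

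In the test on single replicates, the peaks of these gene bodies were chosen and tested in different libraries. The 3 genes themselves were picked for their members, which rest on all replicates. The counts below are therefore partly set by that choice. The rule chose 25, 44 and 51 peaks in Aoah on replicates 1, 2 and 3, and edgeR called 25, 40 and 49 of them lower with LPS + JQ1 than with LPS in the other 2 replicates, at median log2 fold-changes of -1.95, -1.80 and -1.72, and 0 lower with LPS + IL-10. In Lass6 18 of 19, 28 of 38 and 28 of 29 were called lower with LPS + JQ1, and 4, 1 and 2 lower with LPS + IL-10. In Rapgef2 the calls were 4 of 4, 11 of 15 and 16 of 17 for JQ1 and 1, 0 and 1 for IL-10. Over all tested peaks 2.89%, 1.55% and 1.86% were called lower with LPS + JQ1, and 3.28%, 2.32% and 2.69% lower with LPS + IL-10. These counts concern 3 genes, and whether peaks of 1 gene vary independently was not tested.

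**Figure D3:**
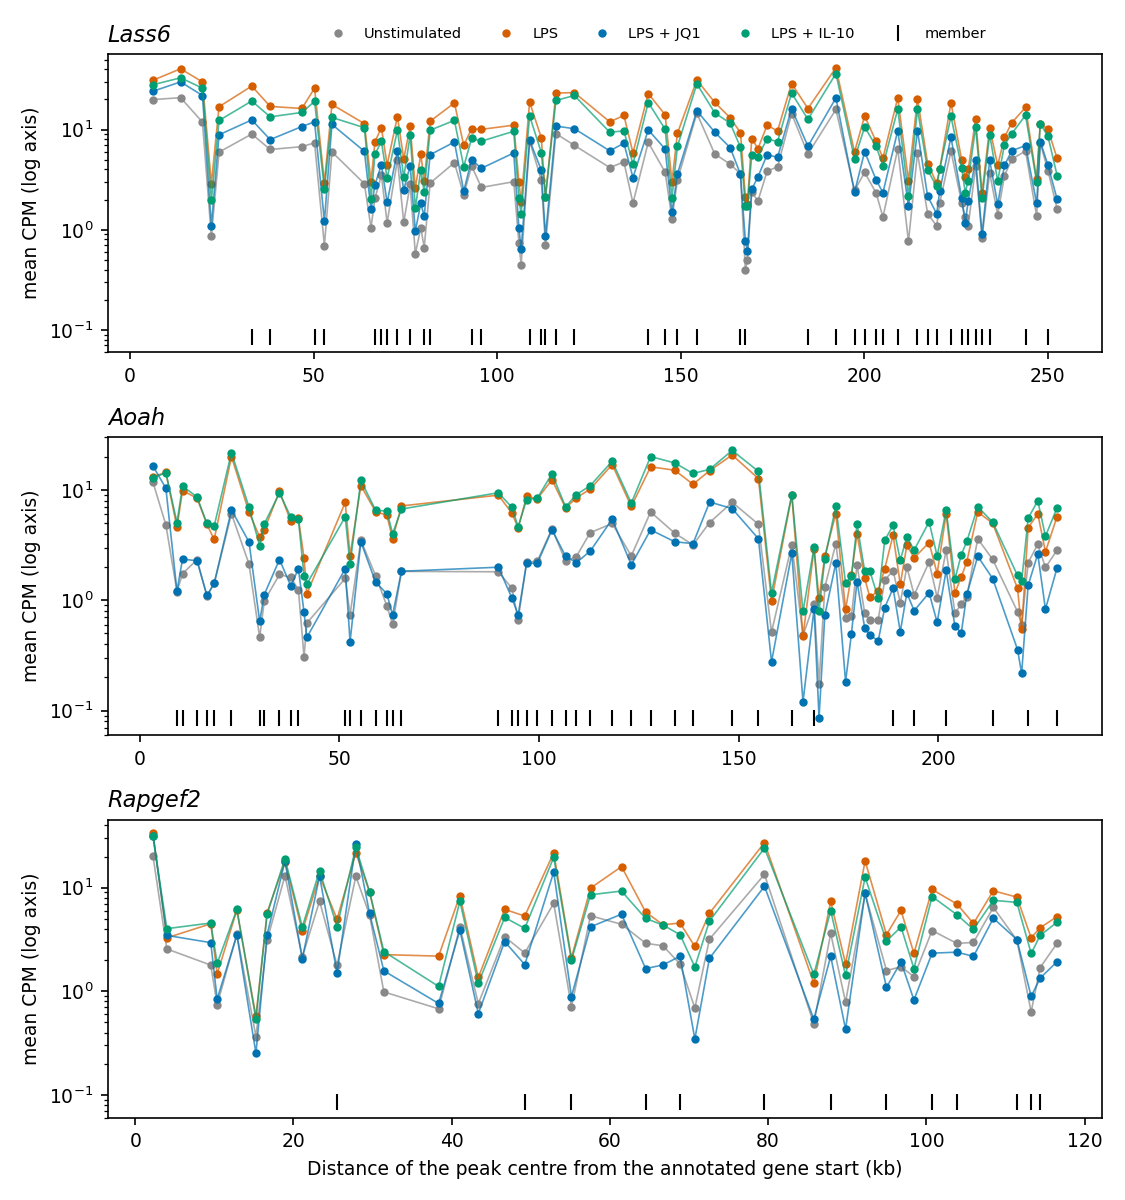
Mean CPM (n = 3, log axis) of every distal peak in the bodies of Lass6, Aoah and Rapgef2 against its distance in kb from the annotated gene start, for 4 of the 6 conditions. Black ticks are members (42, 42 and 13). LPS + JQ1 follows the unstimulated level along most of Aoah, while LPS and LPS + IL-10 run together above it.

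The smaller groups lay at Lcp2 (6 members), at Nos2 and Lgals9 (6, of which 3 in Nos2 and 1 in Lgals9), near Ms4a6d (6), on chromosome 2 at 157298740 to 157309294 (5) and at Ddx58 (5). The first encodes an adaptor of immune receptors, Nos2 the inducible nitric oxide synthase and Ddx58 the RNA sensor RIG-I. In Ddx58 the 3 members in the body had a median LPS + JQ1 ratio of 0.422, and the promoter peak at its start had 23.9 ± 1.09 CPM with LPS and 22.6 ± 1.20 with LPS + JQ1. Its strongest promoter peaks further inside the gene, chr4:40164748-40170721 and chr4:40150692-40157141, went with the members, at 21.4 and 19.2 CPM with LPS and 8.89 and 8.03 CPM with LPS + JQ1. Members in the 8 groups of 5 or more were wider than the remaining 227, with a median of 1955 against 1188 bases, and 75.6% against 32.6% of them were intronic.

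Beyond the members themselves, the chromatin around them moved in the same direction. The 964 other distal peaks of 2 or more CPM within 25 kb of a member had a median LPS over unstimulated ratio of 1.66 and a median LPS + JQ1 ratio of 0.677, with 86.8% below 1, and a median LPS + IL-10 ratio of 0.911. Around the peaks resistant to both, 4425 such peaks had medians of 1.21, 0.954 and 1.04. For all 62312 distal peaks of that level the medians were 0.963, 0.969 and 1.04. Promoter peaks of the genes nearest to members had a median LPS + JQ1 ratio of 0.870 (n = 286) and those nearest to resistant peaks 1.01 (n = 1389), internal starts included. These values come from the libraries that chose the members and are given as a description.

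The most accessible member with LPS was an 8199-base peak over an exon of Fcgr1 (chr3:96084332-96092531), the gene of the high-affinity IgG receptor. It had 28.5, 26.3 and 26.6 CPM unstimulated, 52.2, 63.0 and 66.4 with LPS, 16.6, 18.5 and 18.8 with LPS + JQ1 and 90.9, 80.2 and 80.3 with LPS + IL-10. Its LPS + JQ1 libraries were below even the unstimulated ones, and its LPS + IL-10 libraries above all LPS libraries. An intergenic peak near Fcgr2b, the inhibitory IgG receptor, at chr1:172884597-172887690 had the largest LPS + IL-10 ratio of any member. It had 13.3 ± 2.22 CPM with LPS, 3.70 ± 0.300 with LPS + JQ1 and 39.6 ± 2.25 with LPS + IL-10. At Ctsc, which encodes the lysosomal protease cathepsin C, a peak over an exon (chr7:95435389-95444148) went from 17.8 ± 1.84 CPM to 43.2 ± 8.81 with LPS, 21.2 ± 0.303 with LPS + JQ1 and 72.4 ± 10.0 with LPS + IL-10. These peaks are among the 105 members that were above their LPS level with IL-10.

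The lowest LPS + JQ1 ratio among members of 5 or more CPM with LPS, 0.137, was at chr5:121177733-121180168, 6634 bases from the TSS of Oas2, an oligoadenylate synthetase that senses double-stranded RNA. This peak had 6.99, 4.93 and 3.64 CPM unstimulated, 21.6, 22.8 and 23.4 with LPS, 2.72, 3.23 and 3.32 with LPS + JQ1 and 18.8, 20.5 and 20.2 with LPS + IL-10. The 3 LPS + JQ1 values lay below all unstimulated values. A peak 14971 bases from Samd9l, an interferon-induced gene, had 22.8 ± 0.267 CPM with LPS and 4.48 ± 0.525 with LPS + JQ1. Of the 8 lowest ratios, 3 belonged to intronic peaks of Aoah, at 0.171, 0.194 and 0.222. The Oas, Slfn, Ms4a and Trim30 loci hold near-identical gene copies, and how far uniquely mapped reads cover them was not tested.

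By gene lists, members within 25 kb of a TSS were found for 9 of 33 interferon-response genes (Ddx58, Ifi205, Irgm1, Oas1a, Oas2, Oas3, Oasl1, Oasl2 and Usp18), for 3 of 27 inflammatory cytokines, 3 of 17 chemokines, 4 of 21 inflammatory enzymes, 1 of 18 NF-kappaB pathway genes, 1 of 14 AP-1 and other bZIP factors and 1 of 15 macrophage identity genes. None lay near the 30 surface receptors and costimulatory genes or the 18 kinase feedback genes. Over all 22238 protein-coding genes the share with a member was 0.868%, with an opened peak 9.77% and with a resistant peak 3.79%. The 9 interferon-response genes had 12 members between them. A single member can count for several neighbouring genes, so genes of the same locus are not separate findings. Opened peaks were near all 33 interferon-response genes, and peaks resistant to both near 12 of them, such as Isg15, Ifit1, Mx1 and Rsad2. For the NF-kappaB pathway the only gene with members was Tnfaip3, whereas 8 of the 18 had resistant peaks, among them Nfkbia, Nfkbiz, Rel and Birc3. The lists were chosen with earlier results of these data known.

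Among the cytokines, the member near Il1b had 1.43 ± 0.612 CPM unstimulated, 7.42 ± 0.390 with LPS, 1.90 ± 0.724 with LPS + JQ1 and 6.04 ± 0.815 with LPS + IL-10. The promoter peak of Il1b itself, at chr2:129194399-129197486, was lower with either treatment, at 34.4 CPM with LPS, 13.2 with LPS + JQ1 and 19.2 with LPS + IL-10. Other promoter peaks of Il1b were chr2:129192231-129193242, with 12.1, 2.53 and 6.08 CPM, and chr2:129193256-129194280, with 12.2, 2.38 and 6.19 CPM. A further one, chr2:129197601-129198464, had 4.71, 3.26 and 4.49 CPM. The rule itself placed the distal peak above the IL-10 limit. The member near Il1rn, the gene of the interleukin receptor antagonist, had 10.5 ± 1.20 CPM with LPS, 4.13 ± 0.583 with LPS + JQ1 and 17.4 ± 3.23 with LPS + IL-10, while its main promoter peak had 24.6, 24.0 and 24.0 CPM. Near Edn1, which encodes endothelin, the values were 2.63 ± 0.631, 1.01 ± 0.401 and 5.23 ± 1.15 CPM. The 2 chemokine members, near Ccl9 and within 25 kb of both Ccl8 and Ccl12, were faint, at 3.66 and 3.15 CPM with LPS.

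The 3 Tnfaip3 members were intergenic, and the product of this gene is a ubiquitin-editing brake on NF-kappaB. The strongest, chr10:18717076-18718565, rose 9.24-fold to 27.1 ± 2.03 CPM with LPS. With LPS + JQ1 it had 19.0, 9.12 and 10.9 CPM, so that replicate 1 stood well above the other two, and the mean ratio of 0.481 is close to the limit. Ptgs2, the inducible cyclooxygenase, had a member at chr1:151955327-151957305 with 13.3 ± 0.948 CPM with LPS, and again 7.93 CPM in replicate 1 of LPS + JQ1 against 3.12 and 3.13 in the other two. Ptges, the prostaglandin E synthase, had 14.0 ± 1.25 CPM with LPS, 5.27 ± 0.882 with LPS + JQ1 and 14.1 ± 3.00 with LPS + IL-10. The promoter peak of Ptgs2 had 24.4 CPM with LPS and 19.5 with LPS + JQ1. The members near Batf2, a bZIP factor, had at most 11.5 ± 1.78 CPM with LPS.

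For AP-1, kappaB and ISRE the shares of members with a match were closer to those of all distal peaks than to those of the opened peaks. An AP-1 match was in the middle 500 bases of 73 members (20.2%), against 19.3% of all distal peaks, 26.2% of the opened peaks and 31.5% of those resistant to both. A kappaB match was in 21 members (5.80%), against 5.35%, 11.4% and 13.5%. An ISRE match was in 29 (8.01%), against 7.44%, 15.4% and 13.4%, and in 19.5% of the peaks lowered by both treatments. None of the 3 was found in 255 members (70.4%), against 70.6% of all distal peaks and 50.9% of the resistant ones. The C/EBP letters (TTGCNNAA) were in 25.4%, against 20.5% of all distal, 23.8% of opened and 24.9% of resistant peaks. The PU.1 letters (GAGGAAGT) were in 5.52%, against 6.98%, 5.71% and 6.46%, and the STAT letters (TTCCNNGAA) in 8.01%, against 7.44%, 8.49% and 8.66%. A CTCF consensus was in 4 members (1.10%) against 6.27% of all distal, 2.40% of opened and 2.60% of resistant peaks, and TGACGTCA, the cyclic AMP response element, in none, against 0.410%. Matches describe letters in a window and not sites of binding, and no test was run on these shares.

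Motif shares differed between members in large groups and the rest. In the 8 groups of 5 or more members, AP-1 was matched in 17.0%, kappaB in 2.96% and ISRE in 7.41%, and in the other 227 members in 22.0%, 7.49% and 8.37%. With only the strongest member of each of the 180 groups, the shares were 24.4%, 9.44% and 10.0%. Counted so, AP-1 and kappaB were closer to the opened peaks (26.2% and 11.4%) than to all distal peaks (19.3% and 5.35%). The opened and all distal peaks were not thinned in this way. In the 227 members outside the large groups, both shares were still closer to all distal peaks. The pattern for these motifs therefore depends on how grouped members are counted. Members with an AP-1 match had a median LPS + JQ1 ratio of 0.412 and those without one 0.392. Members were 1390 bases wide at the median, against 906 for all distal peaks and 1425 for the resistant ones, with a median GC content of 43.2%, 45.6% and 44.2%. Their distance to the nearest TSS, 18014 bases at the median, was close to the 18002 bases of all opened peaks.

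**Figure D4:**
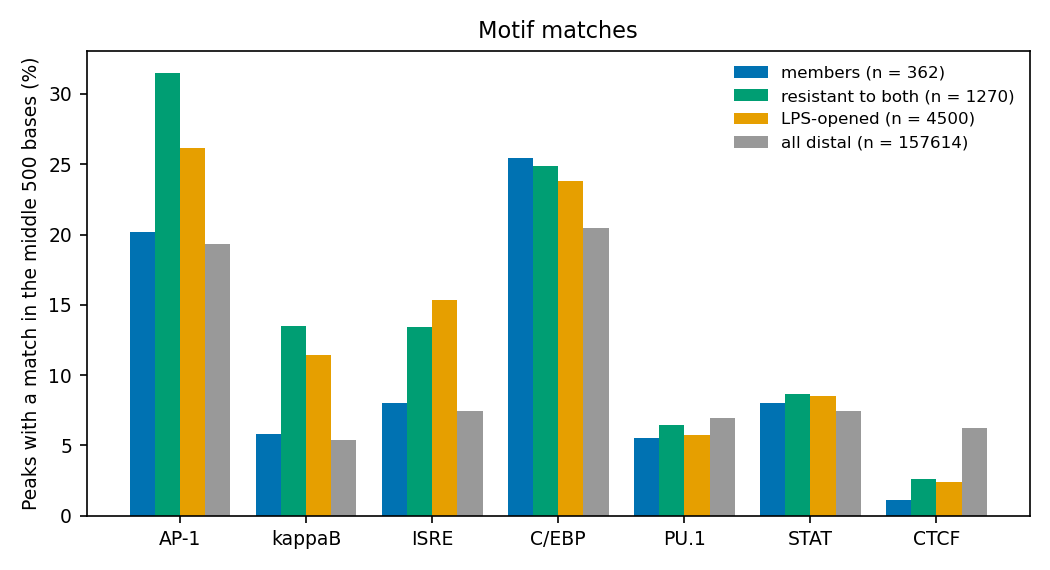
Share of peaks (%) with a match to each motif in the middle 500 bases, for the members, the LPS-opened peaks resistant to both treatments, all LPS-opened peaks and all distal peaks. For AP-1, kappaB and ISRE the bars of the members (20.2%, 5.80% and 8.01%) stand near those of all distal peaks and below both other sets.

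The only comparison of groups that the rule did not use is that of JQ1 alone with IL-10 alone, 2 treatments of resting cells. It asks whether the members already differ between the treatments before LPS. All 362 members passed the filter on low counts. With edgeR's quasi-likelihood test over 194230 peaks, 43 members (11.9%) were lower with JQ1 alone than with IL-10 alone and 0 were higher, where 1.47% and 1.02% of all tested peaks were called lower and higher. DESeq2 called 42 lower and 0 higher. At an unadjusted p below 0.05, 93 members were lower and 3 higher. The log2 fold-change was negative in 258 of 362 members, with a median of -0.22. Of the opened peaks 5.56% were lower and of those resistant to both 7.24%, at medians of -0.06. The share was 0.386% of the peaks that only IL-10 lowered and 0.671% of those lowered by both treatments, at medians of 0.07. Low shares were thus seen where IL-10 lowered the peaks with LPS, with or without lowering by JQ1. Without replicate 2 the number of members called lower fell to 22.

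In 36 of the 43, JQ1 alone lay below and IL-10 alone above the unstimulated mean, and in the other 7 both were below. With LPS, 21 of the 43 had more accessibility with IL-10 than without, against 84 of the 319 other members. The calls were spread over 32 nearest genes. All 4 members at Ctsc were called lower, and so were all 6 of the group near Ms4a6d, a member of a membrane-protein family of myeloid cells. Ms4a6d itself is the nearest gene of 3 called members. Only 3 of 46 in the Lass6 group, 1 of 45 in the Aoah group and 0 of 16 in the Rapgef2 group were called lower.

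The largest of these differences was at chr7:95464788-95465350, an intergenic peak near Ctsc, with 0.633, 0.377 and 0.495 CPM with JQ1 alone and 3.07, 2.70 and 3.98 with IL-10 alone, a log2 fold-change of -2.61 ± 0.30 (SE) with an adjusted p of 1.14e-10 by edgeR. Near Ms4a6d, chr19:11658011-11658635 had 0.575, 0.942 and 0.643 CPM against 3.85, 2.31 and 3.25, a log2 fold-change of -2.06 ± 0.29 and an adjusted p of 1.88e-07. The groups did not overlap at either peak. The Fcgr2b peak had 3.45, 3.64 and 3.56 CPM with JQ1 alone and 12.9, 11.1 and 15.5 with IL-10 alone, at -1.82 ± 0.17 and an adjusted p of 6.43e-15. A peak in an intron of C530008M17Rik and an intergenic one whose nearest TSS is that of Chl1 differed by -1.85 ± 0.21 and -1.83 ± 0.27.

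Several of the strongest members with LPS were called as well. The Fcgr1 peak had 19.4, 14.1 and 17.3 CPM with JQ1 alone and 34.4, 36.0 and 38.3 with IL-10 alone, a log2 fold-change of -1.02 ± 0.14 with an adjusted p of 3.82e-08 by edgeR. At Oas2 the fold-change was -1.38 ± 0.20, at Rassf5, an adaptor of Ras and Rap, -1.11 ± 0.18, at Samd9l -1.02 ± 0.22 and at Oas1g -0.71 ± 0.16. Without replicate 2 the Samd9l and Oas1g calls were lost, at -0.93 and -0.70 with edgeR adjusted p-values of 0.131 and 0.146. The Oas2 peak had 1.96, 1.51 and 2.18 CPM with JQ1 alone, 4.43, 5.55 and 5.63 with IL-10 alone and 6.99, 4.93 and 3.64 unstimulated, so JQ1 stood below both. By contrast the peaks near Tnfaip3 (-0.16 ± 0.24, adjusted p = 0.834) and Ptgs2 (0.01 ± 0.30, adjusted p = 0.995), both by edgeR, did not pass the limits, which does not show that they were equal.

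**Figure D5:**
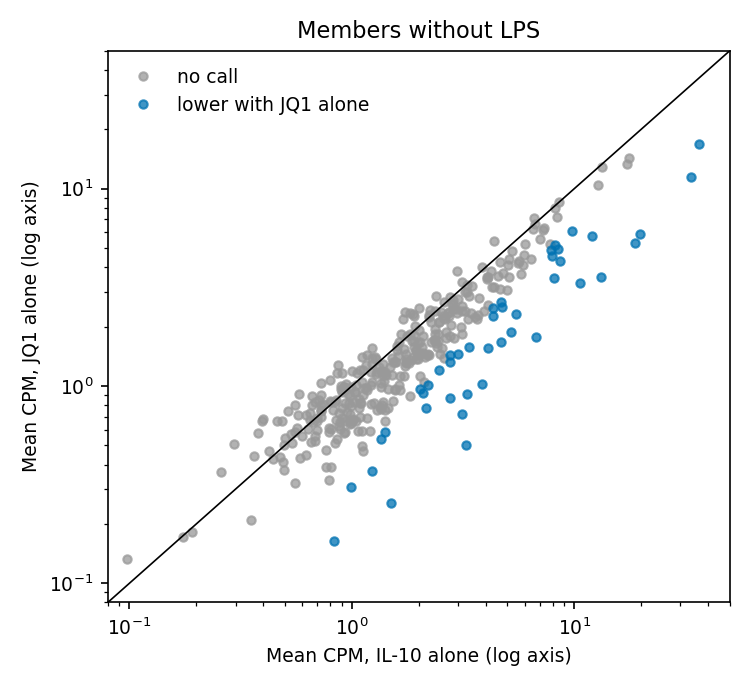
Mean CPM of the 362 members with JQ1 alone against IL-10 alone (n = 3 each, log axes). The line marks equal levels, blue points are the 43 members called lower with JQ1 alone and grey points are not called. Of the 362, 280 lie below the line.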

How the data were processed

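ATAC-seq libraries of 18 BMDM samples were grouped by their labels into 6 groups of 3. The authors used PEPATAC, with bowtie2 alignment to mm9 and MACS2 peaks per library, made a union of the peaks, and classed them as promoter or distal with ChIPseeker. The deposited values are raw counts per peak. The counting tool is not given in the sources used here, and 6 further columns that match no described sample were not used.

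CPM was the count over the column sum of the table of all 194284 peaks (12020526 to 25908198), times 1000000. The members, the gene lists and the tests were chosen with earlier results of these data known. Tests used edgeR 4.0.16 in R 4.3.3 (filterByExpr, TMM, quasi-likelihood, all groups in 1 fit) with FDR below 0.05 and |log2 fold-change| above 0.5. DESeq2 1.42.0 was an alternative. The scripts were tested on simulated counts. The labels number the replicates and give 3 mice, without tying the numbers to mice. Replicates 1 and 3 were sequenced in lanes 5 and 6, and replicate 2 in lane 5 without LPS and lane 6 with it, so for that replicate lane and LPS cannot be told apart. A peak takes the name of the gene with the nearest TSS in GENCODE vM1 (mm9). Peaks in full were the 8 with the most CPM with LPS, the 8 with the lowest LPS + JQ1 ratio at 5 or more CPM, the 5 with the largest difference between JQ1 alone and IL-10 alone, up to 3 per gene list, the 3 largest groups, and the peaks nearest each limit. Counts cover peaks only, so duplicates and reads outside peaks were not examined. Some peaks and markers that these rules name are not reported here.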

Additional observations from a re-analysis of the deposited data

Results flagged for a closer look

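At 5 of the peaks described, IL-10 differed one way in resting cells and the other way with LPS in all 3 same-numbered pairs of libraries. These pairs share only a number, so the pattern rests on an arbitrary pairing. The groups overlapped at Il1b without LPS and at Ms4a6d with LPS. The difference between the 2 effects was not tested, and the ratios below are of the means of 3 libraries. With IL-10 alone the peaks near Rassf5, Ms4a6d and Il1b were above unstimulated cells in all 3 pairs. With LPS + IL-10 they were below LPS in all 3, at ratios of 0.913, 0.778 and 0.813. The peaks near Il1rn and Edn1 went the opposite way, below unstimulated cells with IL-10 alone and above LPS with LPS + IL-10, at ratios of 1.66 and 1.99. Among all members 13 showed the first pattern (3.59%, against 1.27% of all distal peaks) and 10 the second (2.76%, against 7.41%). For JQ1, 2 members were higher alone and lower with LPS in every pair, and 0 the reverse. The rule fixed the direction of JQ1 with LPS.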

How the results depend on the processing

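The number of members, 362, was 415 with TMM scaling (311 shared), 183 and 614 with limits of 0.4 and 0.6 on the JQ1 ratio, 222 with a limit of 0.8 on the IL-10 ratio, and 293 to 574 with each replicate left out, the highest without replicate 1. The count of members lower with JQ1 alone than with IL-10 alone, 43, stayed within 1.5 times in 11 of 12 alternatives, at 54 with total counts in peaks and 44 with the replicate block. It ran from 22 to 37 with each replicate left out, the lowest without replicate 2. Members higher with JQ1 alone numbered 0 in all 12. The replicate block, in which same-numbered libraries share a term, changed no other call count by over 1.5 times. The libraries share only a number, and their deviations from the group means were uncorrelated (mean r 0.00573 over 45 pairs). Chosen after seeing the data, leaving out replicate 1 of the unstimulated cells moved 143 members at or below unstimulated to 91 and 28 at 2 times it to 47.

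Of the 60 alternative counts for peaks chosen on 1 replicate, 52 were within 1.5 times. DESeq2 gave 6 and 36 peaks lower with LPS + IL-10 (chosen on replicates 2 and 3), where edgeR gave 15 and 78, and 6 and 45 lower with JQ1 alone (replicates 1 and 3), where edgeR gave 12 and 74. With total counts in peaks, 38, 67 and 276 were lower with JQ1 alone, and 112 in place of 185 (replicate 3) were higher with LPS + JQ1 than unstimulated. The cause was not tested. Of 126 alternative fits of single named peaks, 120 kept their call, 5 lost it and 1 gained it, and none changed direction; Oas1g, Ms4a6c and Samd9l lost it without replicate 2. AP-1 matches were in 9.39% and 34.8% of members in the middle 200 and 1000 bases, and the sets of peaks are not compared at these windows. Of 24 alternative motif shares of the members, 14 lay outside the confidence interval of the main share. Within 100 kb, 7 members lay near 7 of 27 cytokine genes, and only 3 members accounted for 8 of 17 chemokine genes. Within 10 kb, members lay near 4 of 33 interferon-response genes. The share over all genes was not computed at these distances. Groups of 3 limit the precision of every mean.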
